A study of Neurospora crassa with 5 samples.

Results

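The genes described here are 7 regulators of female sexual development in the filamentous fungus Neurospora crassa, taken from the count table by locus tag: fmf-1 (NCU09387), fsd-1 (NCU09915), asm-1 (NCU01414), sub-1 (NCU01154), ve-1 (NCU01731), ve-2 (NCU02775) and lae-1 (NCU00646). They are 7 of the 10591 gene rows used. RNA was sequenced from cultures of FGSC 4564, a strain with the genotype mat a[m1]s-3B cyh-1, in which the mating-type gene mat 1-2-1 is mutant. The cultures of both groups were of this 1 strain and carry the whole of this genotype. The crossed samples also hold the added conidia of a wild-type strain. One group (2 libraries, replicates 1 and 3) was taken after 6 days on crossing medium, with protoperithecia and before any cross. The other group (3 libraries, replicates 1, 2 and 3) was taken 2 h after conidia of the wild type FGSC 2489 were put on such cultures. Tissue of 1 plate made 1 replicate, per the labels' protocols.

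Neurospora crassa makes protoperithecia, immature female fruiting bodies, when nitrogen is scarce, and a protoperithecium fertilised by a cell of the opposite mating type grows into a perithecium with ascospores. The transcription factors described here are needed for steps of this programme. FMF-1 is an HMG-box protein related to Ste11 of Schizosaccharomyces pombe and is needed for female and male fertility, FSD-1 is an Ndt80-like factor, ASM-1 is an APSES-type factor and SUB-1 is a GATA-type zinc finger protein. VE-1 and VE-2 are velvet proteins related to VeA and VelB of Aspergillus nidulans, where these form a complex with the methyltransferase-like protein LaeA, the relative of LAE-1, and link light to development and secondary metabolism.

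Total counts were 25817200 to 39639683 per library, and ribosomal RNA genes took 14.3 to 21.3% of the counts in the uncrossed and 19.3 to 34.0% in the crossed libraries. Levels are given as counts per 1000000 counts (CPM) on library sizes scaled by TMM, a method that sets the bulk of genes level between libraries. Crossed replicate 1 stood apart from its group: over all tested genes its log2 CPM lay nearer to uncrossed replicate 3 (root mean square difference 0.476) than to crossed replicates 2 (0.598) and 3 (0.557), while these lay at 0.319 from each other. Uncrossed replicate 1 stood further apart, at 0.619 from uncrossed replicate 3 and at 0.713 to 0.951 from the crossed libraries. Perithecial marker genes were present in every library: poi-2, a gene of perithecial development, had 2999 to 7649 CPM and app, the gene of the abundant perithecial protein, had 2238 to 6978 CPM. The summed level of all 4 perithecial markers (mfa-1, which has the synonym poi-1, poi-2, app and the tyrosinase gene T) was 5791 and 14688 CPM in the uncrossed libraries and 6387 to 8644 CPM in the crossed libraries. The genes poi-2 and app made up nearly all of each sum, which therefore does not show the other markers. The level of mfa-1 was 61.0 and 59.7 CPM before crossing and 28.1 to 30.7 CPM after it. The tyrosinase gene T had 15.5 and 0.860 CPM before crossing and at most 0.291 CPM (6 to 10 counts) after it. The 5 marker genes of conidia (eas, con-13, con-10, con-8 and con-6) summed to 15162 and 30531 CPM before crossing and, after it, to 35718 CPM in replicate 1, 64029 CPM in replicate 2 and 59585 CPM in replicate 3. Most of each sum came from eas. The groups lay apart for eas, con-13 and con-6, all higher after crossing, and overlapped for con-8 and con-10. In crossed replicate 1 con-10 had 485 CPM, below the 521 and 497 CPM of the uncrossed libraries. The added conidia are part of the crossed samples, and their part in any difference between the groups was not tested. In such bulk samples, fewer cells of a type and less RNA per cell cannot be told apart.

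The regulators spanned more than 3 orders of magnitude in level, and their order hardly changed between libraries. Set per kilobase of gene span, as levels of different genes must be, asm-1 was the highest with 133.4 to 201.4 CPM per kb. It stood at place 294 of 9757 protein-coding genes by mean level, percentile 97.0. The velvet gene ve-1 followed with 49.5 to 58.7 CPM per kb (percentile 89.2). Next came sub-1 with 23.4 to 29.3 CPM per kb and ve-2 with 20.4 to 29.4 CPM per kb, at percentiles 74.1 and 73.0. These neighbours were not separated: sub-1 was the higher in 3 libraries and ve-2 in the other 2. The genes fsd-1 (7.75 to 10.3 CPM per kb, percentile 43.7) and lae-1 (7.37 to 9.10 CPM per kb, percentile 39.8) also overlapped in range, but fsd-1 was the higher of the pair in each of the 5 libraries. At the bottom, fmf-1 had at most 0.120 CPM per kb. Gene span includes introns, so these levels understate genes with long introns.

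**Figure D1:**
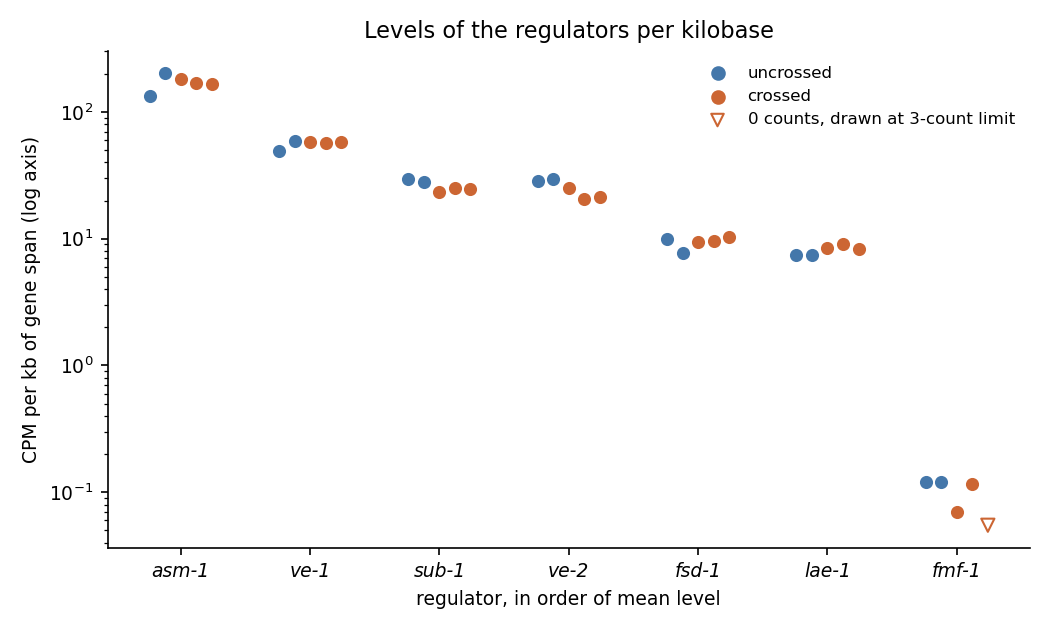
Level of each of the 7 regulators in each library, as CPM per kilobase of gene span on a log axis, ordered by mean level; blue points are the 2 uncrossed and orange points the 3 crossed libraries, and the open triangle marks a count of 0 drawn at the level of 3 counts. asm-1 lies at 133.4 to 201.4 CPM per kb and fmf-1 at or below 0.120 CPM per kb, while the ranges of sub-1 and ve-2 overlap.

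The HMG-box gene fmf-1 was barely detected. It had 7 and 10 counts in uncrossed replicates 1 and 3, which is 0.238 and 0.239 CPM. In crossed replicates 1, 2 and 3 it had 5, 8 and 0 counts, which is 0.140, 0.233 and 0 CPM. The crossed libraries all lay below the uncrossed ones, but the nearest values, 0.238 and 0.233 CPM, differ by less than the worth of 1 count, and the 0 in crossed replicate 3 allows up to 0.110 CPM. Pooled over libraries there were 17 counts before and 13 after crossing, a ratio of crossed to uncrossed of 0.559 with an exact 95% interval of 0.250 to 1.22 for counting error only. This interval holds 1, so no difference in fmf-1 was shown at this depth. The gene did not pass the filter on low counts and has no value in the test. Fitted without a filter, its unadjusted p was 0.429 by edgeR. The HMG-box gene matA-3 of the A mating type had at most 0.406 CPM, in uncrossed replicate 3 (17 counts). It had 0 counts in replicate 1 of both groups. The gene matA-1 of the same mating type, however, had 5.17 and 17.4 CPM (152 and 729 counts) in the uncrossed libraries. This was so although the strain is labelled mat a and no conidia of the other strain had been added. In crossed replicates 1, 2 and 3 matA-1 had 7.15, 27.2 and 25.04 CPM, so that the groups overlapped. Crossed replicate 1, which holds added conidia, lay below uncrossed replicate 3. Both matA-1 and matA-3 were lowest in replicate 1 of each group. The source of the matA-1 counts in either group was not tested.

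Of the 7 regulators 6 were tested with edgeR's quasi-likelihood method, and 0 reached an adjusted p under 0.05, where 0.0463% of all 8638 tested genes did. At an unadjusted p under 0.05 there were 2, ve-2 and sub-1, both lower after crossing, where 21.3% of all tested genes had such a p in either direction and 11% were lower with such a p. DESeq2 also called 0 of the 6, against 11.3% of all genes it gave an adjusted p, with the same number, 2, at an unadjusted p under 0.05. With the replicate number as a block in the edgeR fit, 0 of 6 passed the threshold, against 3.08% of all tested genes, and 0 had an unadjusted p under 0.05 (ve-2 0.0655 and sub-1 0.119). The CPM of the groups did not overlap in 3 of the 6 (ve-2 and sub-1 lower, lae-1 higher), where this was so in 41.9% of all tested genes, 20.6% lower and 21.3% higher. The median log2 fold change of the 6 was 0.06, with 4 above and 2 below 0, and that of all tested genes was 0.00, with 49.9% below 0. Whether these shares differ from those of all tested genes was not tested. Without crossed replicate 1 the log2 fold changes were -0.47 for ve-2, -0.20 for sub-1, -0.01 for asm-1, 0.08 for ve-1, 0.17 for fsd-1 and 0.24 for lae-1, and 1 of the 6, ve-2, passed the threshold by edgeR, where 8.84% of all genes tested in that fit did. Without uncrossed replicate 1 they were, in the same order, -0.40, -0.20, -0.23, -0.03, 0.34 and 0.23, and 0 of the 6 passed, with 1 at an unadjusted p under 0.05 (fsd-1).

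**Figure D2:**
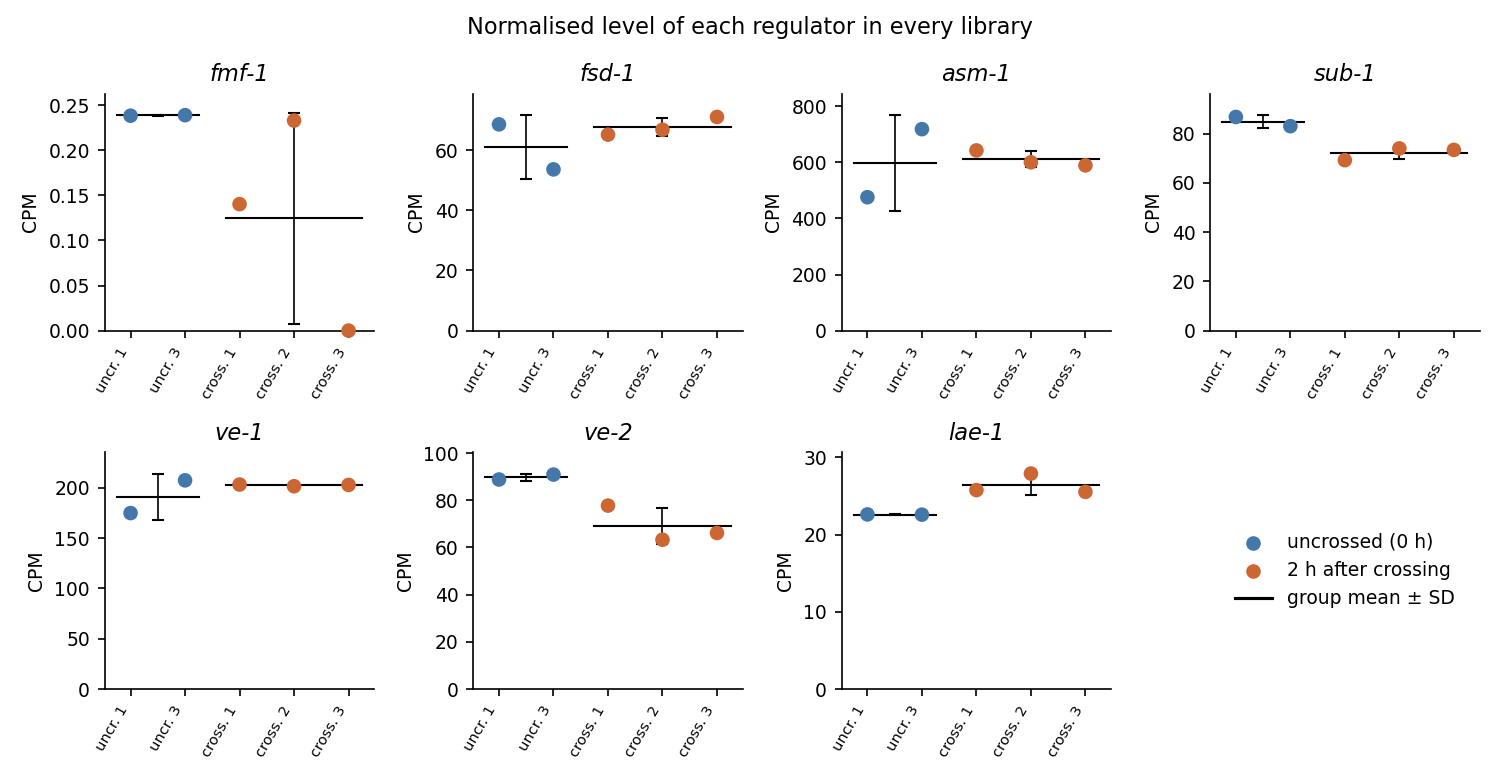
CPM of each regulator in every library (y axis, linear from 0); blue points are uncrossed, orange points are crossed libraries, and black lines with bars are group means ± SD (n = 2 and n = 3). The groups lie apart in sub-1, ve-2, lae-1 and, at 0 to 10 counts per library, fmf-1, and they overlap in fsd-1, asm-1 and ve-1.

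The velvet gene ve-2 showed the largest difference of the tested regulators. Its level was 88.8 CPM in uncrossed replicate 1 and 90.9 CPM in uncrossed replicate 3. It was 77.7 CPM in crossed replicate 1, 63.3 CPM in crossed replicate 2 and 66.2 CPM in crossed replicate 3. Every crossed library lay below both uncrossed libraries, and crossed replicate 1 lay between the uncrossed pair and the other crossed libraries. The uncrossed mean of 89.8 ± 1.47 CPM (SD, n = 2) stood against a crossed mean of 69.1 ± 7.65 CPM (SD, n = 3), and the log2 fold change was -0.38 (SE 0.12, 95% interval -0.67 to -0.09). By edgeR the adjusted p was 0.180 and by DESeq2 0.0788, and 10.9% of all tested genes had an unadjusted edgeR p at least as small as its 0.0198. Without crossed replicate 1 the difference was -0.47 and the adjusted p by edgeR was 0.0419. Over all alternative fits the adjusted p ran from 0.0419 to 0.521. The conidial markers were highest in crossed replicates 2 and 3 (64029 and 59585 CPM summed), the libraries where ve-2 was lowest; whether added conidia had a part in this was not tested.

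In the other velvet gene the groups overlapped. The gene ve-1, whose product is the VeA relative, had 174.8 and 207.3 CPM before crossing and 203.1, 201.4 and 202.7 CPM after it. The crossed libraries agreed closely with each other (202.4 ± 0.884 CPM, SD, n = 3) and lay within the range of the uncrossed libraries (191.0 ± 23.0 CPM, SD, n = 2). The difference was 0.08 on the log2 scale (SE 0.12, 95% interval -0.20 to 0.37). Its adjusted p by edgeR was 0.680. The sign turned with plain library sizes (-0.13) and without uncrossed replicate 1 (-0.03).

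The methyltransferase-like gene lae-1 had 22.6 CPM in both uncrossed libraries and 25.7, 27.9 and 25.5 CPM in the crossed ones, by replicate number. All crossed libraries lay above both uncrossed ones. The uncrossed mean was 22.6 ± 0.0203 CPM (SD, n = 2), the crossed mean 26.4 ± 1.31 CPM (SD, n = 3). The log2 fold change was 0.22 (SE 0.11, 95% interval -0.04 to 0.49). Its adjusted p by edgeR was 0.281. With plain library sizes the log2 fold change was 0.01, so the difference depended on how libraries were scaled. With plain library sizes after leaving out ribosomal RNA genes, an alternative chosen after the data had been seen, it was 0.22.

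Ratios of genes within a library do not depend on that scaling. Per kilobase, ve-2 stood to lae-1 at 3.89 and 3.98 in the uncrossed libraries, and at 2.99, 2.25 and 2.57 in crossed replicates 1, 2 and 3. The ratio was lower in every crossed library than in either uncrossed one, a mean change of -0.61 on the log2 scale. The ratio of ve-1 to ve-2 was 1.73 and 2.00 before crossing and 2.29, 2.79 and 2.69 after it, a mean change of 0.47. The ratio of ve-1 to lae-1 was 6.71 and 7.97 before and 6.85, 6.27 and 6.90 after crossing, so that the groups overlapped. Exact permutation tests of 2 against 3 libraries gave p = 0.1 for the ratios of ve-2 to lae-1 and of ve-1 to ve-2, the smallest this design allows, and p = 0.4 for ve-1 to lae-1 (two-sided). Adjusted over the 15 pairs of tested regulators these were 0.25, 0.25 and 0.6. Groups lay apart in 7 of the 15 pairs (46.7%), close to the 42.5% found over all pairs of tested genes with counts in every library.

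**Figure D3:**
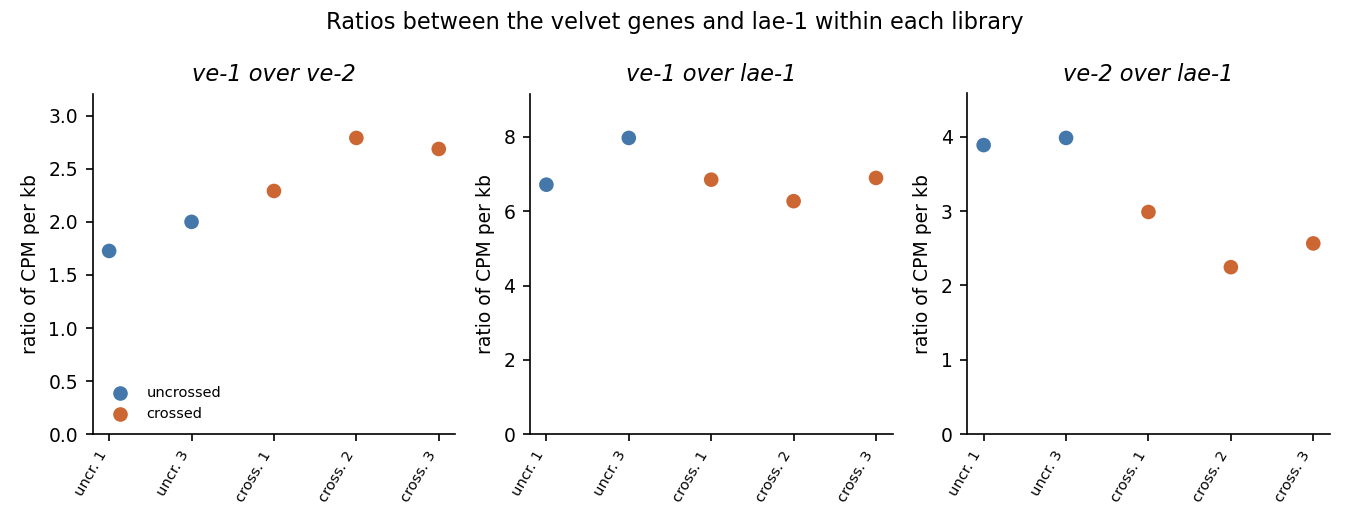
Ratios of CPM per kilobase between the velvet genes ve-1 and ve-2 and lae-1 within each library (y axis, linear from 0); blue points are uncrossed and orange points crossed libraries, 1 point a library. The ratio of ve-2 to lae-1 is 3.89 and 3.98 before and 2.25 to 2.99 after crossing, and the groups overlap for ve-1 over lae-1.

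The GATA-type gene sub-1, named for protoperithecia that lie submerged in the medium when it is lost, had 86.8 and 83.0 CPM before crossing. After crossing it had 69.2, 74.0 and 73.4 CPM, in the order of replicates 1, 2 and 3. Every crossed library lay below both uncrossed libraries, and here crossed replicate 1 was the lowest. With the groups apart in this way, leaving out 1 library could hardly turn the sign of the difference. The uncrossed mean was 84.9 ± 2.65 CPM (SD, n = 2), the crossed mean 72.2 ± 2.60 CPM (SD, n = 3), and the difference came to -0.23 on the log2 scale (SE 0.09, 95% interval -0.45 to -0.02). By edgeR the adjusted p was 0.215 and by DESeq2 0.124. Its sign was the same in all 14 alternative fits, from -0.45 with plain library sizes to -0.20, and 0 of them gave an adjusted p under 0.05.

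The Ndt80-like gene fsd-1 had 68.6 and 53.6 CPM in the uncrossed libraries and 65.2, 66.8 and 71.1 CPM in the crossed ones, again by replicate number. The uncrossed libraries differed more from each other than the crossed ones did, and the groups overlapped. The log2 fold change was 0.15 (SE 0.13, 95% interval -0.18 to 0.48). Its adjusted p by edgeR was 0.525, and its sign turned with plain library sizes (-0.08) and without uncrossed replicate 3 (-0.02). One gene of the annotation overlaps fsd-1, NCU09917, which had at most 8 counts in a library against at least 1947 for fsd-1. The RefSeq table lists 3 transcripts of fsd-1, which counts per gene do not separate.

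The APSES gene asm-1, named for ascospore maturation and also needed to form protoperithecia, varied most between the uncrossed libraries. It had 476 and 718 CPM there, the lowest and the highest value of all 5 libraries. Crossed replicates 1, 2 and 3 had 642, 600.1 and 589 CPM and lay between them. The uncrossed mean was 596.9 ± 171.5 CPM (SD, n = 2) and the crossed mean 610.5 ± 28.1 CPM (SD, n = 3). On the log2 scale the difference was 0.03 (SE 0.20, 95% interval -0.46 to 0.53). Its adjusted p by edgeR was 0.929. The sign turned with plain library sizes (-0.17), without uncrossed replicate 1 (-0.23) and, at -0.01, without crossed replicate 1. The interval holds changes from 0.726-fold to 1.44-fold, so these libraries do not show that asm-1 kept its level.

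**Figure D4:**
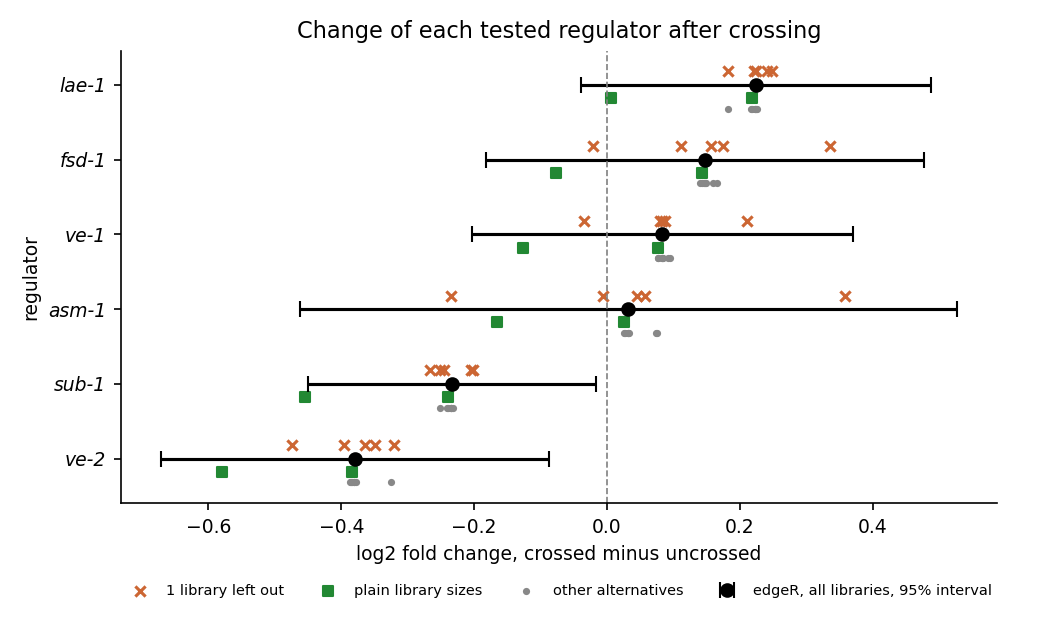
Log2 fold change (x axis, crossed minus uncrossed) of the 6 tested regulators; black points with bars are the edgeR estimate with its 95% interval, crosses leave out 1 library, green squares use plain library sizes with and without ribosomal RNA genes, and grey points are the other alternatives. The intervals of ve-2 and sub-1 lie below 0 and the other 4 include 0, before any adjustment for the number of genes tested.

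The regulators differed in how steady they were over all 5 libraries, whatever the group. The SD of log2 CPM was smallest for ve-1 (0.10, at percentile 13.5 of tested genes) and largest for ve-2 (0.24, percentile 54.0), where the median gene had 0.22. It was 0.13 for lae-1, 0.14 for sub-1, 0.16 for fsd-1 and 0.22 for asm-1. Within the uncrossed pair the log2 difference was 0.59 for asm-1, 0.35 for fsd-1 and 0.25 for ve-1, and at most 0.06 for the other 3. In asm-1 and ve-1 uncrossed replicate 3 was the higher of the pair, and in fsd-1 it was the lower.

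Likeness of pattern was measured as the root mean square difference of centred log2 CPM over the 5 libraries, where a smaller value is a closer match. Among the regulators the closest pairs were ve-1 with lae-1 (0.11) and ve-1 with asm-1 (0.12), and the most distant was ve-2 with lae-1 (0.33). Among genes with a symbol and a mean of at least 10 CPM, ve-1 was closest to stk-47 (0.02) and ro-3 (0.02), and lae-1 to mid-1 (0.02) and tzn-2 (0.03). The closest to ve-2 were pex2 (0.04) and gpi-1 (0.05), and to sub-1 they were bem46 (0.03) and trp-2 (0.05). The closest to asm-1 were ck-1b (0.05) and dim-2 (0.06). For fsd-1 they were aln-1 (0.06) and nit-2 (0.07), the GATA-type regulator of nitrogen use. With 5 libraries many genes can lie this close, and no test was made of it.

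The authors' deposited table of relative expression sets the lower stage of each gene at 1 and gives limits around each estimate. In the authors' deposited table the limits of the stages lay apart for 4 of the 7 regulators, ve-2, sub-1, asm-1 and ve-1, all higher before crossing. Over the 9204 genes with both estimates above 0 the limits lay apart in 75.3%, and in 59.6% with the higher value before crossing. The authors' deposited table gives ve-2 1.48 before crossing (limits 1.46 to 1.51) against 1 after it, and sub-1 1.34 (1.32 to 1.36) against 1. In the authors' deposited table asm-1 has 1.17 (1.16 to 1.17) and ve-1 1.11 (1.09 to 1.12), and the CPM of the groups overlap in both genes. For fmf-1 the authors' deposited table has 2.05 (limits 1.20 to 2.66) before against 1 (0.386 to 1.84) after crossing, limits that overlap. For fsd-1 and lae-1 they overlap as well in the authors' deposited table, with 1.02 before crossing for fsd-1 and 1.03 after it for lae-1.

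The ratios in the authors' deposited table lay close to those of pooled counts over total counts. These were 1.50 for ve-2, 1.36 for sub-1, 1.17 for asm-1, 1.11 for ve-1, 1.03 for fsd-1 and 0.988 for lae-1, uncrossed over crossed. The ratios of mean TMM-scaled CPM were lower in each of the 6 genes, at 1.301, 1.18, 0.978, 0.944, 0.903 and 0.856 in the same order. With plain library sizes the median change over the 8638 tested genes was -0.21 (log2), and with plain library sizes after leaving out ribosomal RNA genes, an alternative chosen after the data had been seen, it was 0.00. In that fit asm-1, ve-1 and fsd-1 were at 0.03, 0.08 and 0.14, with the sign they had under TMM. Their signs also turned when single libraries were left out, as given above for each gene.

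**Figure D5:**
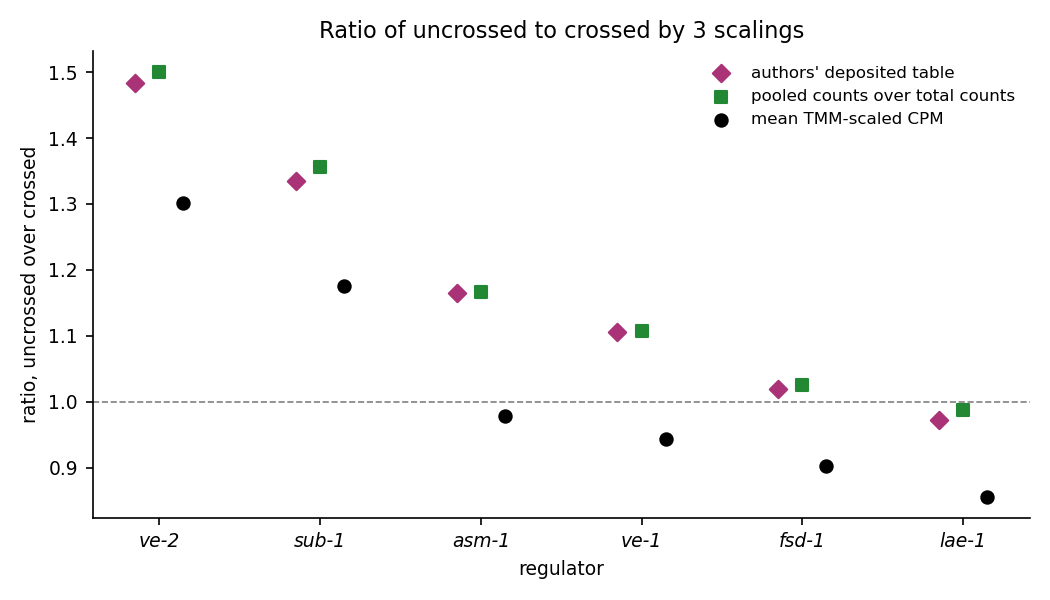
Ratio of uncrossed to crossed for the 6 tested regulators (y axis, where the dashed line at 1 is no difference); diamonds are from the authors' deposited table, squares are pooled counts over total counts, and circles are mean TMM-scaled CPM. Diamonds and squares nearly coincide, while circles lie lower in every gene and below 1 for asm-1, ve-1 and fsd-1.

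Other regulators of the same families as these genes were set beside them. Of 7 such genes, 0 reached the threshold by edgeR and 1 had an unadjusted p under 0.05, vib-1, where 21.3% of all tested genes had one. DESeq2 called 0 of the 7, against 11.3% of all genes. The gene vib-1, an Ndt80-like factor as is fsd-1, had 288.0 and 403 CPM before crossing and 276, 181.4 and 194.5 CPM after it, which is -0.67 on the log2 scale (SE 0.24). Its adjusted p by edgeR was 0.207. Its crossed libraries all lay below the uncrossed ones, where those of fsd-1 overlapped with them; the difference between these genes was not tested. Of the GATA-type genes, wc-1, the gene of the blue-light receptor, had 138.2 and 164.1 CPM before and 177.5, 184.3 and 189.7 CPM after crossing (log2 fold change 0.28, adjusted p = 0.241 by edgeR). The ascus development gene asd-4 had 47.6 to 53.6 CPM in all libraries, with overlapping groups.

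A wider list of 16 sexual development genes, which holds pheromone, receptor, ascus development and corepressor genes, also had 0 past the threshold by edgeR, with 1 higher and 2 lower at an unadjusted p under 0.05. DESeq2 called 2 of the 16, both lower after crossing, mfa-1 and T. Over all genes 21.3% had such an unadjusted p and 11.3% were called by DESeq2. The median log2 fold change of the list was -0.09. The pheromone gene mfa-1 had 61.0 and 59.7 CPM before and 29.7, 30.7 and 28.1 CPM after crossing (log2 fold change -1.03, adjusted p = 0.0618 by edgeR and 0.0285 with the replicate block). The gene pp-1, a Ste12-like factor of mating and hyphal fusion, had 199.8 and 214.2 CPM before and 224.8, 171.8 and 171.8 CPM after crossing, with overlapping groups. The corepressor gene rco-1 had 246 to 262 CPM in all 5 libraries. Of 11 light-response genes, a process in which SUB-1, VE-1 and the white collar proteins act, 0 passed by edgeR, 5 were higher and 1 lower at an unadjusted p under 0.05, and DESeq2 called 5 (4 higher and 1 lower), beside the same shares of 21.3% and 11.3% over all genes. Of the carotenoid genes in this list, al-1 had a log2 fold change of 0.55 (adjusted p = 0.247 by edgeR), al-2 one of -0.79 (adjusted p = 0.159 by edgeR) and al-3 one of 1.03 (adjusted p = 0.114 by edgeR and 0.0496 with the replicate block). Of these 11 genes, 3 (con-6, con-10 and eas) are also conidial markers. Of the 5 conidial markers edgeR called 0 and DESeq2 3, all higher after crossing, with 3 at an unadjusted p under 0.05 by edgeR. Of the 4 perithecial markers edgeR called 0 and DESeq2 2, both lower, with 2 at such a p. The shares over all genes, 21.3% and 11.3%, stand beside these counts too. All 4 perithecial markers are also in the sexual development list, and the 2 are again mfa-1 and T. In poi-2 and app the groups overlapped.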

How the data were processed

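The deposited count table holds whole-number counts by gene for 5 libraries. CASAVA 1.8.2, fastp, HISAT2 2.1.0 and StringTie 1.3.3b are named, with no role, per the submitters' processing notes. The sources used here name no build, annotation or strand setting. The authors' deposited table of relative expression holds, per the file headers, a ratio for each stage with limits around it, and its program is not stated. One count row could not be assigned to columns and was left out. Symbols and gene spans came from the RefSeq table of NC12, which matched 10590 of 10591 rows by locus tag. The names ve-2 and lae-1 are not in it. No sequences are printed.

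Counts were tested with edgeR 4.0.16 (R 4.3.3), using filterByExpr, TMM, robust quasi-likelihood, the group alone, all 5 libraries, two-sided p and Benjamini-Hochberg adjustment over 8638 genes, threshold 0.05. SEs and 95% intervals came from the F statistic. Log2 CPM used a prior count of 2. The fit was also run on simulated data. The outcome is not reported here, and no statement here rests on it. Alternatives used DESeq2 1.42.0, limma 3.58.1 (voom), other scalings and filters, the replicate block and single libraries left out. Named genes were all members, the members of fixed lists, and the 2 genes most like each member. Of the listed symbols, vos-1 was not matched. Members, lists and tests were chosen with earlier results of these data known. The exact interval for fmf-1 and the floors (3 counts) cover counting error only. The 95% intervals of log2 fold changes also take in the spread between libraries. The p-values measure the spread between plates.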

Additional observations from a re-analysis of the deposited data

How the results depend on the processing

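Over 14 alternative fits, ve-2, sub-1 and lae-1 kept their direction, though lae-1 was at 0.00676 with plain library sizes. These are the tested regulators whose groups did not overlap in CPM, so leaving out 1 library could hardly turn their sign. The 0 regulators past the threshold stayed at 0 in 13 fits, and leaving out single libraries gave 0 to 1, the 1 being ve-2 without crossed replicate 1. With plain library sizes fsd-1 was at -0.0773, asm-1 at -0.166 and ve-1 at -0.126, against values above 0 with TMM. Leaving out each library in turn gave log2 fold changes of -0.0205 to 0.336 for fsd-1, -0.234 to 0.359 for asm-1, -0.0344 to 0.211 for ve-1 and -0.473 to -0.320 for ve-2. The number of all genes past the threshold was 4 in the main edgeR test, 987 by DESeq2 and 0 to 762 with each library left out, the highest without crossed replicate 1, 192 without uncrossed replicate 3 and 0 without any 1 of the other libraries. With the replicate block 266 genes passed (3.08% of those tested), of which 0 were regulators, with adjusted p of 0.335 for ve-2 and 0.435 for sub-1 by edgeR. The labels give no meaning to the numbers. Deviations of same-numbered libraries correlated at 0.257 and 0.224, over too few pairs to decide whether the numbers pair plates. For none of these shifts was the cause tested. A lone uncrossed library is taken to vary as the crossed libraries do. Counts of 0 to 10 per library limit fmf-1, and 2 uncrossed libraries limit every other gene.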
